A study of Mus musculus with 4 samples.

Results

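Mesothelioma tumour suppressor genes are the genes most often lost or mutated in cancers of the mesothelium, the cell layer that lines the body cavities. The 9 mouse genes Bap1, Nf2, Lats1, Lats2, Cdkn2a, Cdkn2b, Mtap, Trp53 and Setd2 were taken by symbol from a table of 48425 genes, and all 9 were found. The RNA came from untransformed mesothelial cells of 4 C57BL/6 mice labelled WT that were 10 weeks old, each giving 1 library, and the study has no other group. The cells were loosened from the peritoneal wall with trypsin, sorted as CD45-, PDPN+ and GPM6a+ cells, and used fresh. Levels are counts-per-million (CPM), the estimated count of a gene over the library total, and errors are SD over the 4 animals.

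As background, the protein products act in a few connected systems. BAP1 is a deubiquitinase that works with ASXL proteins on ubiquitinated histone H2A, and SETD2 writes trimethylation of histone H3 lysine 36. Merlin, the product of Nf2, links membrane and cortical actin to the Hippo kinases LATS1 and LATS2, which phosphorylate YAP and TAZ. The CDKN2A and CDKN2B proteins restrain the kinases CDK4 and CDK6, the ARF product of Cdkn2a restrains MDM2, and MDM2 marks p53 for degradation. MTAP salvages methionine and adenine from methylthioadenosine, and its gene is often lost together with its neighbours Cdkn2a and Cdkn2b.

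The libraries held 4569578, 4371817, 4554370 and 4090224 estimated counts for animals 1 to 4. Markers of mesothelium were high: their summed level was 17078 to 19127 CPM, and 14 of 15 passed the test of a level above 1 CPM described below. Pdpn and Gpm6a, which the sort selected on, are among the 15. Calb2, which encodes calretinin, was the exception and was at 0 in all 4 libraries. Fibroblast markers had summed levels of 14996, 22287, 19648 and 14759 CPM in animals 1 to 4, with 7 of 8 above 1 CPM, but the sum was mostly Dcn. The means were 12889 CPM for Dcn, 2741 for Col3a1, 1141 for Col1a2 and 1040 for Col1a1. Lum stood at 76.0 CPM, Pdgfra at 25.5, Dpt at 7.97 and Pi16, which did not pass, at 1.55. The B cell markers summed to 26.3 CPM in animal 1 and to at most 1.84 CPM in the others. Macrophage and monocyte markers summed to 41.6 to 60.3 CPM, with 2 of 8 above 1 CPM (Csf1r and Cd68). The sort had left out cells positive for CD45. Blood endothelial markers summed to 388 to 424 CPM, mostly from Esam (mean 359 CPM), with 3 of 6 above 1 CPM. Kdr at 49.2 CPM and Tek at 2.64 CPM also passed. Pecam1 at 0.940 CPM did not, and Cdh5 and Emcn were at 0. Muscle markers summed to 70.6 to 166 CPM and adipocyte markers to 31.2 to 42.7 CPM. The erythroid and platelet markers summed to 4.74, 46.2, 38.2 and 1.35 CPM. In such bulk libraries, fewer cells of a type and less RNA per cell cannot be told apart.

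Of the 9 genes, 8 lay above 1 CPM and 6 above 10 CPM, by a one-sided quasi-likelihood F test of edgeR with Benjamini-Hochberg adjustment over all 48425 genes and a threshold of 0.05. Among all genes listed, 24.7% passed 1 CPM and 15.1% passed 10 CPM, and over protein-coding genes these shares were 50.9% and 32.4%. The median level of the 9 genes was 35.1 CPM, against 2.88 CPM for protein-coding genes. Trp53 was highest, Lats1 and Cdkn2b passed 1 CPM but not 10 CPM, and Cdkn2a had no count in any animal. The 9 genes thus ranged from no count to 139 CPM in the same cells.

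**Figure D1:**
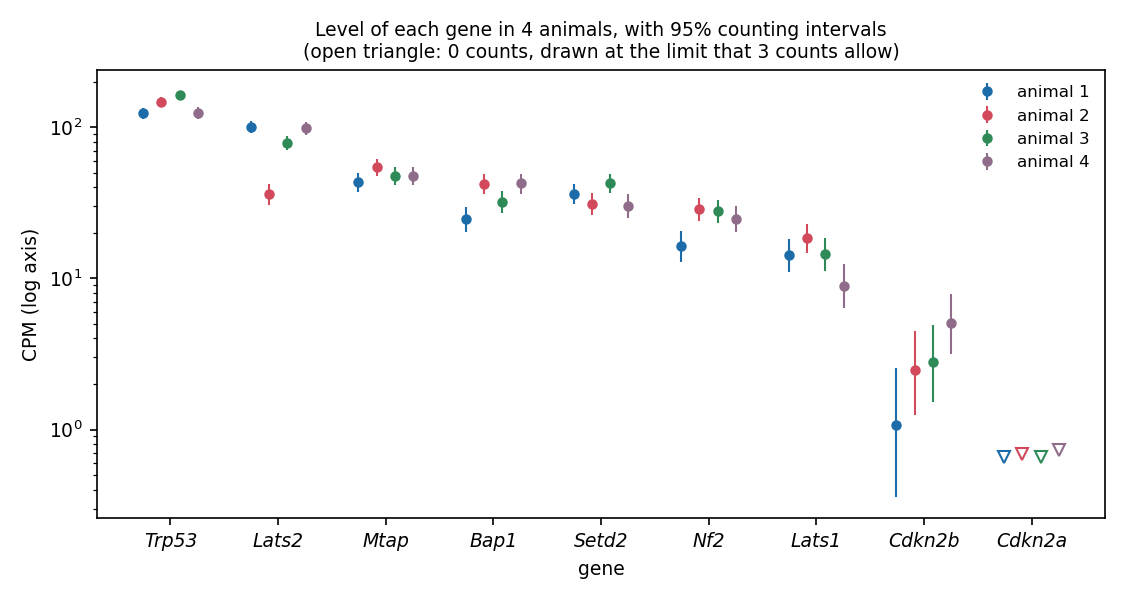
CPM (log axis) of each of the 9 genes in each of the 4 animals, with 95% Poisson intervals of the count as bars; open triangles mark 0 counts, drawn at the level that 3 counts would give. Lats2 is low in animal 2, Cdkn2b is spread from 1.07 to 5.05 CPM, and Cdkn2a is at 0 in every animal.

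The Cdkn2a, Cdkn2b and Mtap genes lie next to each other on chromosome 4 and gave 3 very different levels. Cdkn2a encodes p16INK4a and p19ARF (ARF) from separate first exons, and Cdkn2b encodes p15INK4b from the neighbouring gene. Because the genes are related, their transcripts were compared in words of 31 bases, to ask whether a read can be assigned to one of them. Every such word of Cdkn2a and of Cdkn2b was unique to its gene among the annotated transcripts.

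The starts of the genes differ in sequence. The 250 bases before each RefSeq start (RefSeq, GRCm38.p6) were searched, and the part outside any annotated exon is printed with each CpG in capitals, because the ARF start differs from the others in CpG content.
Cdkn2a, ARF start (chr4:89294654-89294869, minus strand): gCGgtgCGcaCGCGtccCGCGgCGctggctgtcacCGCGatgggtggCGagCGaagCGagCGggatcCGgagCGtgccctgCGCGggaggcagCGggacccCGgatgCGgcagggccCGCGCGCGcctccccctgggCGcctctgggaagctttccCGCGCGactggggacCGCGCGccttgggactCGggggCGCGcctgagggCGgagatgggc
Cdkn2a, INK4a start (chr4:89282193-89282442, minus strand): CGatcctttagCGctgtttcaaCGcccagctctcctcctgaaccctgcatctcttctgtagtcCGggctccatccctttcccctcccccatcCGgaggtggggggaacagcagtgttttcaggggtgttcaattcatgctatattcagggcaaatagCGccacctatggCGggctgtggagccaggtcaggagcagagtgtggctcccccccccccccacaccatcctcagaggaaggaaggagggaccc
Cdkn2b start (chr4:89311040-89311282, minus strand): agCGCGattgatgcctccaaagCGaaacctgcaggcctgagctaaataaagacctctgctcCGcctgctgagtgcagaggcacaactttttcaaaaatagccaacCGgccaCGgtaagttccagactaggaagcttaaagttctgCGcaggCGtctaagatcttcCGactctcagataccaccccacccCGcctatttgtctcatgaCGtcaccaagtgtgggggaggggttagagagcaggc
In the full 250 bases the ARF start held 40 CpGs, more than 98.7% of the 32851 mouse promoters of that length. The INK4a start held 7 and the Cdkn2b start 12, where the median promoter held 6 and the quartiles were 2 and 16. The hexamer GGGCGG, searched on both strands, was found before the ARF start and not before the other two, and 32.7% of all promoters held it. Among the other members, Bap1 held 43 CpGs, Lats1 37 and Setd2 31, while Mtap held 11 and Trp53 held 9. Lats2 and Nf2 each had 2 RefSeq starts, with 31 and 4 CpGs for Lats2 and 20 and 2 for Nf2. A match of letters is a description of the window and not a measured site.

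Cdkn2a (chr4:89274471-89294653, minus strand, 2 transcripts) was listed at 0 estimated counts in animals 1, 2, 3 and 4. The level that 3 counts would give, an upper limit for a count of 0, was 0.657, 0.686, 0.659 and 0.733 CPM in these libraries and 0.171 CPM over the group. No animal differed from another, and the limit covers counting error only. The 2 transcripts, Cdkn2a-201 of 852 bases and Cdkn2a-202 of 895 bases, are merged in the deposited gene value, so neither was detectable at this depth. They share 548 of their 31-base words, and 274 and 317 words are found in only Cdkn2a-201 and Cdkn2a-202. Genes that every cell uses were not at 0: all 12 RNA polymerase II subunit genes and all 75 mitochondrial ribosomal protein genes had counts, with Mrps30 lowest at 4.03 CPM. These 2 control sets were chosen after the data were seen. Their levels lie well above the group limit of 0.171 CPM, so they cannot show whether a weakly expressed gene would be counted.

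Cdkn2b (chr4:89306299-89311039, minus strand) had 4.88, 10.8, 12.8 and 20.6 estimated counts in animals 1 to 4, or 1.07, 2.48, 2.81 and 5.05 CPM. Animal 4 was highest and animal 1 lowest, and their 95% Poisson intervals did not overlap, the first ending at 2.55 CPM and the other starting at 3.18 CPM. The mean was 2.85 ± 1.65 CPM (SD, n = 4), above 1 CPM with an edgeR adjusted p of 0.00845. The call was lost without animal 4 (adjusted p = 0.187 by edgeR) and with limma's voom weights (adjusted p = 0.05003). Its adjusted p was the largest of the 8 called genes.

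Mtap (chr4:89137122-89181081, plus strand) was at 43.1, 54.4, 47.4 and 47.6 CPM in animals 1 to 4. The animals lay close together, and Mtap was the only expressed gene of the 9 whose lowest and highest values had overlapping 95% Poisson intervals. Its mean of 48.1 ± 4.67 CPM had a coefficient of variation of 9.69%, and it was above 10 CPM (edgeR adjusted p = 4.17e-13). Per length, against the limit of 3 counts over the group, Mtap was at least 90.2-fold and Cdkn2b at least 10.6-fold higher than Cdkn2a. Mtap was higher than Cdkn2b per kb in 4 of 4 animals, by 3.20 ± 0.83 on the log2 scale (SD, n = 4). An exact two-sided sign-flip test gave p = 0.125, the smallest that 4 animals allow (0.159 after adjustment over the 14 gene pairs compared).

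The gap between Mtap and Cdkn2a is 93.4 kb, and that between Cdkn2a and Cdkn2b is 11.6 kb. Within 500 kb of Cdkn2a, 37 of 40 annotated genes were in the table, 28 of these (75.7%) were at 0 in every animal, and 9 had any count. Of all 48425 genes, 52.6% were at 0 in every animal. Only Mtap and Cdkn2b passed 1 CPM by edgeR. Summed over the 4 libraries the others held 7.91 (Gm26490), 3.92 (Gm13290), 2.89 (Dmrta1), 2.33 (Gm26867), 1.62 (Gm26525), 0.988 (Gm13285) and 0.254 (Gm10580) estimated counts. Of the 23 protein-coding genes of the window, 5 had any count and 78.3% were at 0, against 29.3% of the 21432 protein-coding genes with a length. Apart from Cdkn2a, all coding genes at 0 lay in a single stretch from Gm13289 to Ifne. It holds interferon genes such as Ifna1, and its gene centres lie -517 to -415 kb from the start of Cdkn2a-202. Nearer to Cdkn2a, the coding genes Mtap, Cdkn2b and Dmrta1 all had counts, so the share at 0 describes that stretch.

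**Figure D2:**
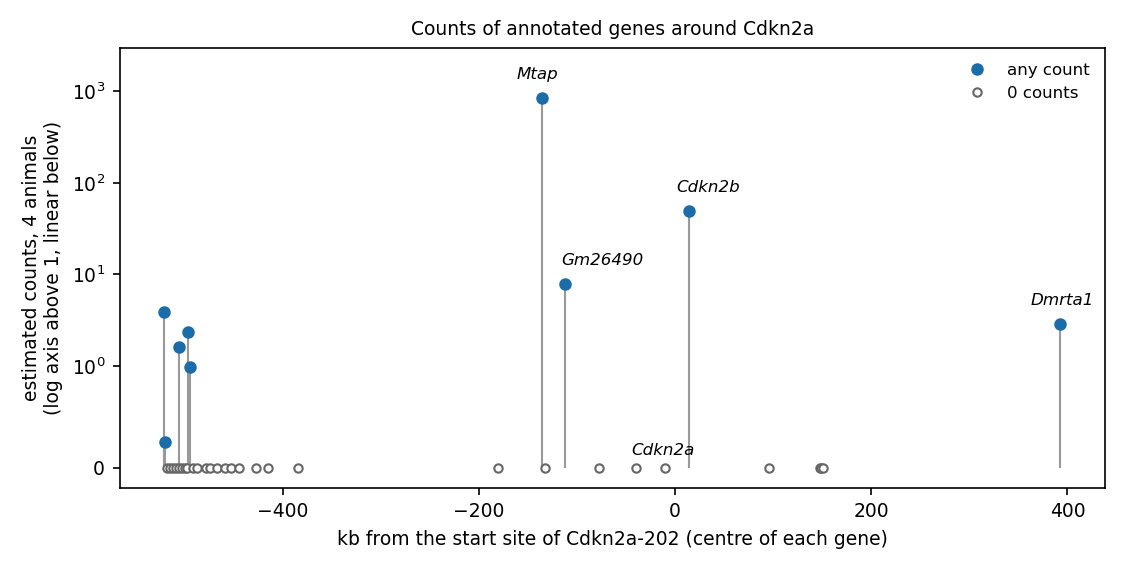
Estimated counts summed over 4 animals (log axis above 1, linear below) for the genes within 500 kb of Cdkn2a, placed by the distance in kb of their centres from the start of Cdkn2a-202. Mtap and Cdkn2b stand out, and Cdkn2a between them is at 0.

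The kinases restrained by the CDKN2 proteins were abundant. All 13 genes of the CDK4/6 and RB list passed 1 CPM by edgeR (12 with limma's voom weights), led by Ccnd2 (cyclin D2) at 264 CPM, Cdk6 at 206 CPM and Cdk4 at 187 CPM. For this and the lists below, the share of all protein-coding genes that passed 1 CPM was 50.9%. Here and below, lists are led by CPM, which is not corrected for length, and the order of Cdk4 and Cdk6 per kb depended on the transcript length used. The lowest was Rbl1, which encodes p107, at 4.90 CPM. Their relatives Cdkn2c and Cdkn2d, which encode p18INK4c and p19INK4d, were named for kinship and stood at 17.3 ± 4.67 and 38.5 ± 14.7 CPM. Per kb of the longest coding transcript the INK4 genes ordered as Cdkn2d at 27.0, Cdkn2c at 7.01, Cdkn2b at 2.05 and Cdkn2a at 0, with the group limit of 0.191 CPM per kb for Cdkn2a. The reaction of MTAP feeds the methionine cycle, and the substrate it clears inhibits the methyltransferase PRMT5. All 15 genes of the methionine salvage and PRMT5 list passed 1 CPM, led by Mat2b (299 CPM), Mat2a (161 CPM) and Clns1a (79.2 CPM), with Srm (spermidine synthase) lowest at 5.66 CPM. Prmt5 itself stood at 44.6, 43.3, 35.0 and 31.5 CPM in animals 1 to 4.

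Trp53 (chr11:69580359-69591873, plus strand), which encodes p53, was at 123, 146, 162 and 125 CPM in animals 1 to 4. Animal 3 was highest and animals 1 and 4 were close together at the low end, and the range spanned 1.31-fold. The mean was 139 ± 18.7 CPM (SD, n = 4), above 10 CPM with an edgeR adjusted p of 2.95e-20. Of its 31-base words, 89.8% were unique to the gene. Of 4154 words, 365 also occurred in the processed pseudogene Trp53-ps, which the table lists at 0 in all 4 libraries, so no count was listed under the pseudogene.

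The ubiquitin ligase gene Mdm2, whose product limits p53 and is itself a p53 target, was at 26.9, 21.7, 38.0 and 39.1 CPM. Trp53 exceeded it per kb in 4 of 4 animals, by 2.97 ± 0.44 on the log2 scale with median transcript lengths and by 2.93 with longest lengths (exact sign-flip p = 0.125). Of the 12 p53 regulators 9 passed 1 CPM by edgeR. Rchy1, a ligase for p53, was highest at 112 CPM, followed by Mdm4 at 41.1 CPM and Mdm2. The family members Trp63 and Trp73 did not pass, at 0 and 0.644 CPM, nor did the checkpoint kinase gene Chek1 at 2.29 ± 2.32 CPM. Of 18 p53 target genes 16 passed, led by Btg2 at 1638 CPM, Sesn1 at 149 CPM and Fas at 132 CPM. Bbc3 (PUMA) at 1.79 CPM and Pmaip1 (NOXA) at 1.24 CPM did not. Btg2 varied more than Trp53, with 2221, 1374, 902 and 2055 CPM in animals 1 to 4.

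Nf2 (chr11:4765845-4849536, minus strand) was at 16.5, 28.6, 27.8 and 24.7 CPM in animals 1 to 4. Animal 1 stood below the others, and its 95% Poisson interval did not reach that of animal 2. The mean was 24.4 ± 5.55 CPM (SD, n = 4), above 10 CPM (edgeR adjusted p = 3.35e-06). The related ERM genes Ezr (ezrin), Msn (moesin) and Rdx (radixin), which share merlin's FERM fold, stood at 742 ± 132, 161 ± 15.2 and 77.1 ± 15.1 CPM. Ezr exceeded Nf2 in 4 of 4 animals per kb, by 4.12 on the log2 scale with median and 5.51 with longest transcript lengths, an SD of 0.36 (exact sign-flip p = 0.125). Of the 9 merlin relatives and partners 8 passed 1 CPM, and Slc9a3r1, a scaffold bound by ERM proteins, and Ddb1, a ubiquitin ligase subunit, stood at 519 and 175 CPM. Pak1, a kinase that phosphorylates merlin, did not pass at 1.96 CPM.

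Lats2 (chr14:57689662-57758388, minus strand) was at 99.9, 35.8, 78.1 and 98.4 CPM in animals 1 to 4. Animal 2 was lowest by a wide margin, and the other 3 animals lay between 78.1 and 99.9 CPM. The mean was 78.1 ± 29.8 CPM (SD, n = 4), the highest level was 2.79 times the lowest, and the gene was above 10 CPM (edgeR adjusted p = 1.64e-14). Without animal 2 the mean was 92.1 CPM and the gene was again above 10 CPM (edgeR adjusted p = 1.42e-23). Its SD of 0.69 on the log2(CPM + 0.5) scale was above that of 95.3% of the 3017 genes within 2-fold of its level, whose median SD was 0.26. In animal 2 the summed fibroblast markers were highest (22287 CPM against 14759 to 19648 CPM) as were the summed erythroid and platelet markers (46.2 CPM) and the summed mesothelial markers (19127 CPM against 17078 to 17505 CPM). The summed muscle markers were lowest there (70.6 CPM against 75.7 to 166 CPM), and the part of these markers in the result was not tested. Of the 31-base words of Lats2, 58.2% were unique to it; 2926 of 7020 also occurred in Gm49361, an overlapping gene model on the same strand. Gm49361 is not in the table under that name, so how reads of the shared words were assigned was not tested.

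**Figure D3:**
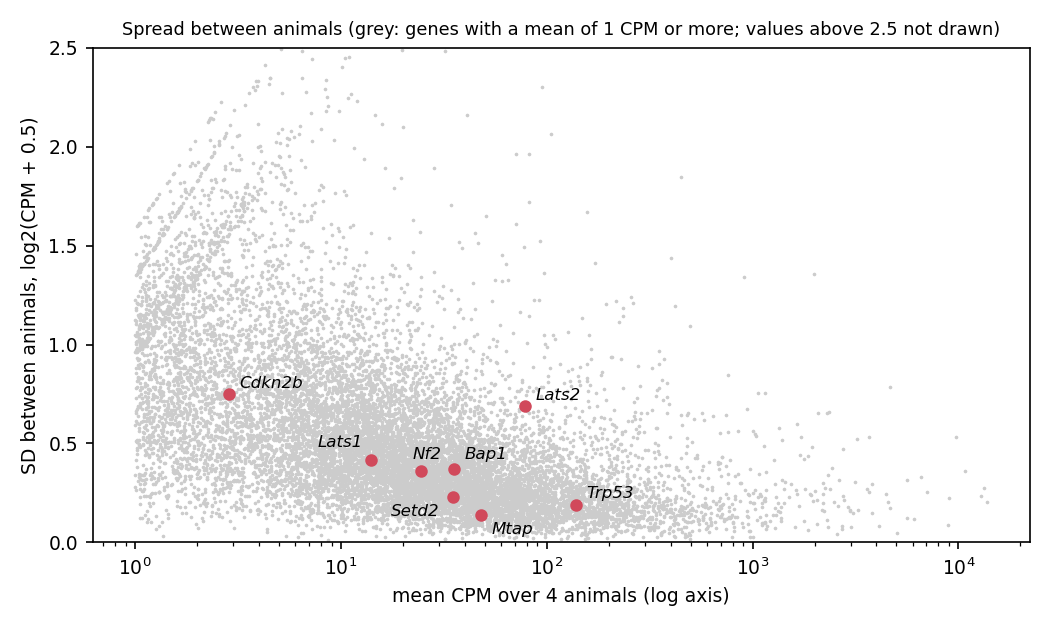
SD between 4 animals of log2(CPM + 0.5) against mean CPM (log axis) for genes with a mean of 1 CPM or more (grey) and the members with counts (red). Lats2 lies above most genes of its level, and Mtap and Setd2 lie low.

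Lats1 (chr10:7681214-7716460, plus strand) was at 14.2, 18.4, 14.5 and 8.96 CPM in animals 1 to 4. Animal 4 was lowest and animal 2 highest, the reverse of the place of animal 2 in Lats2. The mean was 14.0 ± 3.88 CPM (SD, n = 4), above 1 CPM (edgeR adjusted p = 4.03e-14) but not above 10 CPM (adjusted p = 0.184). Lats2 exceeded its paralog per kb in 4 of 4 animals, 7.35-fold with longest transcript lengths, or by 2.88 ± 1.05 on the log2 scale, and by 4.68 with median lengths (exact sign-flip p = 0.125). Lats2 likewise exceeded Nf2 in 4 of 4 animals, by 1.46 with longest lengths and 2.65 with median lengths.

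The kinases and scaffolds upstream of LATS were mostly present. Of 19 Hippo genes 18 passed 1 CPM by edgeR, against 50.9% of protein-coding genes. The list was led by Amotl1 at 189.7 CPM, the kinase gene Taok1 at 152 CPM and Amotl2 at 143 CPM. Amot, the founding angiomotin gene, was the exception at 0.264 CPM. The MST kinase genes Stk3 and Stk4 stood at 22.2 ± 5.42 and 26.5 ± 6.71 CPM, and their order per kb depended on the transcript length used. Mob1a, a LATS coactivator gene, exceeded Mob1b per kb in 4 of 4 animals, by 2.24 on the log2 scale with median and 2.76 with longest lengths.

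Bap1 (chr14:31251450-31259944, plus strand) was at 24.6, 42.2, 32.0 and 42.4 CPM in animals 1 to 4. Animals 2 and 4 were nearly equal and highest, and animal 1 was lowest, with a 95% Poisson interval that ended at 29.7 CPM while that of animal 4 began at 36.2 CPM. The mean was 35.3 ± 8.63 CPM (SD, n = 4), above 10 CPM (edgeR adjusted p = 9.01e-10). Of 14 partner genes of BAP1 11 passed 1 CPM, led by Ogt (33.5 CPM), which encodes O-GlcNAc transferase, Hcfc1 (22.03 CPM), which encodes host cell factor 1, and Yy1 (21.1 CPM). Asxl1 at 18.8 ± 4.90 CPM and Asxl2 at 18.7 ± 7.19 CPM were present, and Asxl3 at 0.0955 CPM was not above 1 CPM. Brca1 at 0.146 CPM, whose product gave BAP1 its name, and Bard1 at 0.757 CPM, which encodes the partner of BRCA1, did not pass either. Foxk1 and Foxk2, which encode forkhead factors bound by BAP1, stood at 8.64 ± 3.35 and 8.99 ± 3.23 CPM.

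Setd2 (chr9:110532597-110618633, plus strand) was at 36.4, 31.1, 42.7 and 30.1 CPM in animals 1 to 4. Animal 3 was highest and animals 2 and 4 were close together at the low end. The mean was 35.1 ± 5.75 CPM (SD, n = 4), above 10 CPM (edgeR adjusted p = 4.68e-10). Bap1 and Setd2 had nearly the same CPM, but the longest coding transcript of Setd2 is 8350 bases and that of Bap1 3460 bases, so per kb of these Bap1 stood at 10.2 ± 2.49 and Setd2 at 4.201 ± 0.688. With median lengths the order turned, and Bap1 less Setd2 was -0.26 ± 0.55 on the log2 scale. Of 16 genes of H3K36 methylation 14 passed 1 CPM, led by the methyltransferase genes Nsd3 (209 CPM) and Nsd1 (84.1 CPM) and by Dnmt3a (61.1 CPM), whose product reads methylated H3K36. Setmar at 2.10 CPM and Dnmt3b at 1.64 CPM did not pass. Of 18 other genes recurrently altered in mesothelioma 16 passed, led by Kmt2d at 182 CPM, Sf3b1 at 164 CPM and Ddx3x at 102.3 CPM. Tert, the telomerase catalytic subunit gene, at 1.99 CPM and the calcium channel gene Ryr2 at 1.00 CPM did not. The median levels of the lists were 9.78 CPM for the BAP1 partners, 13.8 for the p53 regulators, 14.9 for the p53 targets, 19.2 for H3K36 methylation, 29.0 for the other mesothelioma genes, 33.8 for the Hippo genes, 38.4 for methionine salvage and PRMT5, 38.5 for CDK4/6 and RB, and 77.1 for the merlin relatives. The median over all protein-coding genes was 2.88 CPM, and 50.9% of them passed 1 CPM, as given above.

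**Figure D4:**
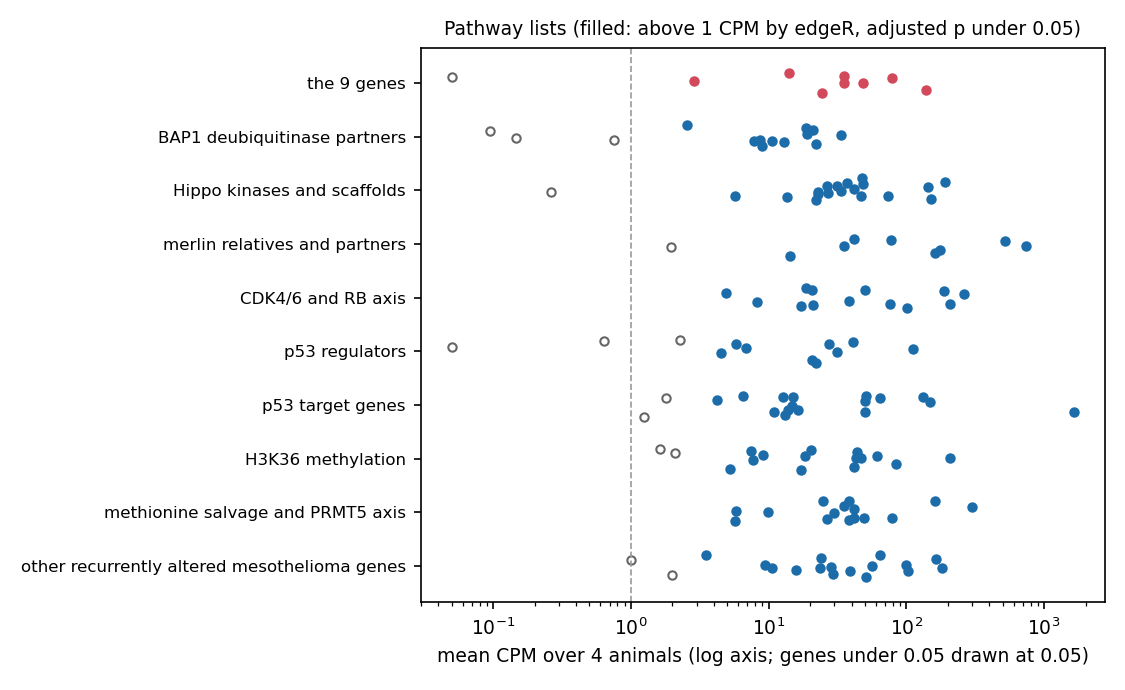
Mean CPM over 4 animals (log axis, genes under 0.05 CPM drawn at 0.05) for the 9 genes and the pathway lists, filled where the gene passed 1 CPM by edgeR. All 13 CDK4/6 and RB genes and all 15 methionine salvage and PRMT5 genes are filled, and each of the other lists has at least 1 open point.

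Levels of different genes were compared per kb of the longest protein-coding transcript. In that unit Trp53 stood at 74.5 ± 10.0, Mtap at 17.2 ± 1.67, Lats2 at 15.0 ± 5.75, Bap1 at 10.2 ± 2.49 and Nf2 at 5.17 ± 1.17 CPM per kb (SD, n = 4). Setd2 followed at 4.201 ± 0.688, Cdkn2b at 2.05 ± 1.19, Lats1 at 1.95 ± 0.539 and Cdkn2a at 0. Among 21432 protein-coding genes, Trp53 lay above 95.2%, Mtap above 84.8%, Lats2 above 83.3%, Bap1 above 78.7%, Nf2 above 69.5%, Setd2 above 66.7%, Cdkn2b above 57.7% and Lats1 above 57.05%. Of the 8 neighbouring steps in this order, 3 had the same direction in all 4 animals. Trp53 exceeded Mtap by 2.11 ± 0.18 on the log2 scale, Bap1 exceeded Nf2 by 0.98 ± 0.24, and Lats1 exceeded Cdkn2a, each in 4 of 4 animals. Setd2 exceeded Cdkn2b by more than the SD (1.22 ± 1.03), but in 3 of 4 animals. Mtap and Lats2 (0.30 ± 0.82), Lats2 and Bap1 (0.49 ± 0.94), Nf2 and Setd2 (0.28 ± 0.45), and Cdkn2b and Lats1 (-0.08 ± 1.22) differed by less than the SD and were not ordered alike in all animals. With median in place of longest lengths, Bap1 fell below Nf2 in 4 of 4 animals (-0.42 ± 0.24), so their order depends on the length used. On average Bap1 then also fell below Setd2 (-0.26 ± 0.55). The longest and median coding lengths were 5191 and 866 bases for Lats2, 1867 and 1797 for Trp53, and both 2797 for Mtap. Per kb of median length the mean of Lats2 would lie above those of Mtap and Trp53. The order above, with Trp53 highest, thus holds for longest lengths.

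**Figure D5:**
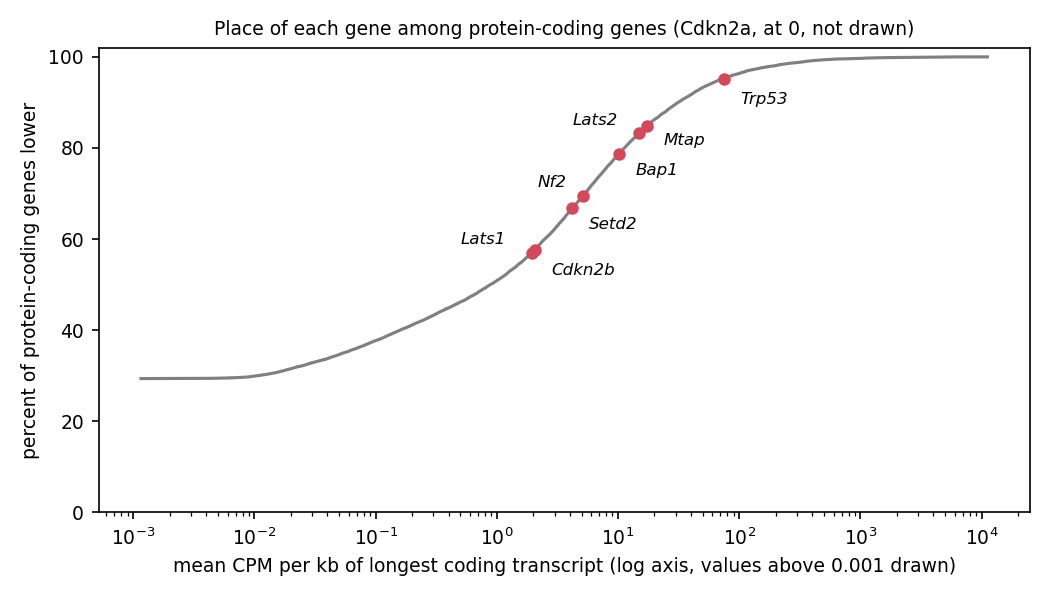
Percent of 21432 protein-coding genes with a lower level against mean CPM per kb of the longest coding transcript (log axis), with the members in red. Trp53 lies at the 95.2nd percentile and Lats1 at 57.05, and Cdkn2a, at 0, is not drawn.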

How the data were processed

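RNA of sorted peritoneal mesothelial cells was measured by RNA-seq after depletion of ribosomal RNA, in 1 library for each of 4 animals. The authors deposited estimated counts per gene symbol, not normalized. Per the submitters' processing notes the build was GRCm38.p5, and kallisto 0.43.1, limma 3.38.3 and edgeR 3.24.3 were used in steps that are not named. The step from transcripts to genes, the annotation release and the strandedness are not given in the sources used here. Estimated counts depend on how reads were divided among similar transcripts and grow with transcript length. No batch is given in the labels.

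CPM is the deposited estimated count over the column sum. For the tests, counts were rounded to whole numbers and column sums served as library sizes. Levels were tested against 1 and 10 CPM with the quasi-likelihood F test of edgeR 4.0.16 under R 4.3.3, one-sided, and p-values were adjusted by Benjamini-Hochberg across the 48425 genes. P-values rest on the spread between these 4 animals (common biological coefficient of variation 42.3%), with variance estimates shared across genes. Their size therefore depends on the method and on the genes included. For Trp53 above 10 CPM the adjusted p was 2.95e-20 by edgeR over all genes. It was 1.09e-10 by edgeR over genes with 10 counts or more, and 4.06e-05 with limma's voom weights. In simulated counts, 0.5% of 200 genes at a true 1 CPM, 50.5% at 2 CPM and 99.5% at 4 CPM were called above 1 CPM. For the step at 10 CPM, 0% at 10 CPM, 75% at 20 CPM and 100% at 40 CPM were called. Alternatives were TMM, DESeq2 1.42.0, limma 3.58.1 with voom weights, a minimum of 10 counts, and leaving out each animal.

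Gene positions, transcript lengths and 31-base words came from GENCODE M21 on GRCm38, in which 98.3% of the table's symbols were found. Gene pairs were compared within each animal as log2(estimated count + 0.5) less log2 length, with the median length of coding transcripts as the length chosen first. Poisson intervals and limits from 3 counts describe counting error alone, because PCR copies of a molecule cannot be recognised in these libraries. The members and the gene lists were chosen with earlier results of these data known. All members and all genes of the pairs are named. Of each list the 3 highest, the lowest and, where 5 or fewer, those not above 1 CPM are named, as are genes with counts within 500 kb of Cdkn2a. Msn, Rdx, Cdkn2c, Cdkn2d and Prmt5 were added for their roles after their values were seen. A direct alignment of Cdkn2a with Cdkn2b is not reported here.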

Additional observations from a re-analysis of the deposited data

Results flagged for a closer look

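Of 58 genes of the members and named pathway genes with counts, 4 had 1 animal far from the other 3. Chance alone marks about 1 in 20 where values are normally distributed, which genes near 0 need not be. A gene with counts in 1 animal only, such as Asxl3, is always marked. None of the 9 tumour suppressor genes was among them. Asxl3, a partner gene of Bap1, had 0.382 CPM in animal 3 and 0 in the others. Chek1, which encodes a checkpoint kinase, was at 5.75 CPM in animal 3, against a mean of 2.29 CPM. Pak1, which encodes a kinase acting on merlin, was at 5.50 CPM in animal 2, against a mean of 1.96 CPM. Srm, which encodes spermidine synthase, was at 7.92 CPM in animal 4, against a mean of 5.66 CPM.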

How the results depend on the processing

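The 9 genes gave 8 levels above 1 CPM under every normalization, test and omitted animal tried, except 7 with limma's voom weights and 7 without animal 4, where Cdkn2b was lost; 6 levels lay above 10 CPM under all of them. Over all alternatives 156 of 158 calls of single members kept their side of the threshold and 122 of 140 pair comparisons kept their direction. Of 81 counts over pathway lists 71 were equal to those reported, and 10 moved by 1 gene, among them 12 of 13 CDK4/6 and RB genes with voom weights. The pairs that changed direction did so mostly with transcript length. With the longest length the log2 difference became 0.98 for Bap1 over Nf2 (from -0.42), 1.26 for Bap1 over Setd2 (from -0.26), 0.59 for Stk3 over Stk4 (from -0.44), 2.33 for Cdk4 over Cdk6 (from -0.77), 0.82 for Asxl1 over Asxl2 (from -0.01) and -0.65 for Foxk1 over Foxk2 (from 0.22). With no division by length it became 0.53 for Bap1 over Nf2, 0.049 for Asxl1 over Asxl2 and -0.087 for Foxk1 over Foxk2. With the median length of basic-set transcripts, chosen after seeing the data, it became 0.043 for Bap1 over Nf2, 1.26 for Bap1 over Setd2, 0.52 for Stk3 over Stk4, 2.18 for Cdk4 over Cdk6 and 0.40 for Asxl1 over Asxl2. Leaving out 1 animal at a time gave -0.34 to 0.17 for Asxl1 over Asxl2 and -0.050 to 0.50 for Foxk1 over Foxk2. No comparison between groups was possible because the study has 1 group, and pairing was used only between genes of the same animal. A gene with 0 counts over the group could lie as high as 0.171 CPM at this depth.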
